A study of Homo sapiens with 30 samples.

Results

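The histone cluster genes are the 71 protein-coding genes, of 57992 genes in the deposited RPKM table, whose symbols begin with HIST1H, HIST2H, HIST3H or HIST4H in GENCODE release 29. RPKM is reads per kilobase of gene length, scaled to the number of reads. Levels of different genes depend on the length given to each gene model and on how shared reads are split, so ranks among members are approximate. By class, 6 of the 71 encode the linker histone H1, 17 encode H2A, 18 encode H2B, 15 encode H3 and 15 encode H4. By position, 55 belong to HIST1, 12 to HIST2, 3 to HIST3 and 1 to HIST4. RNA-Seq was done on 30 libraries of total RNA depleted of rRNA, with 3 replicates in each of 10 groups. HCT116, a colon carcinoma line described as one in which MYC is stabilized, was left untreated or given 2 or 10 µM Omomyc for 6 or 24 h, with the lower dose as the labels give it. Ramos, a Burkitt's lymphoma line with a MYC translocation, was left untreated or given 0.5 or 2.5 µM Omomyc for 6 or 24 h. Omomyc is a miniprotein derived from the dimerization and DNA binding region of MYC and is used to inhibit it. Each line has 1 untreated group without a time point, shared by its 4 comparisons with treated cells. Whether untreated HCT116 cells, or any Ramos cells, received the protein delivery reagent that was used with Omomyc in HCT116 cells is not given in the sources used here.

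Core histones form the octamer around which DNA is wrapped, an H3-H4 tetramer flanked by H2A-H2B dimers, and H1 binds the linker DNA between nucleosomes. The genes in these clusters are transcribed mainly in S phase, when new DNA must be packaged. Their mRNAs lack introns for the most part and end in a conserved stem-loop in place of a poly(A) tail. The stem-loop is bound by SLBP, and NPAT, a substrate of cyclin E-CDK2, activates their transcription.

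The genes lie in few places, as annotated on GRCh38. Of the 55 HIST1 genes, 32 lie in chr6:26017085-26285638, 5 in chr6:27125897-27147515, 16 in chr6:27807444-27893843 and 2 in chr6:25726132-25727292. On chromosome 1, 11 HIST2 genes lie in chr1:149782689-149887916, HIST2H3PS2 lies at chr1:143905556-143905966 and the 3 HIST3 genes in chr1:228424845-228460470. HIST4H4 stands alone at chr12:14767999-14771131. The annotation gives more than 1 exon to 13 of the 71 genes. In 11 places an H2A gene and an H2B gene start 219 to 331 bp apart and are transcribed away from each other.

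The stem-loop is shown because it is what sets these mRNAs apart from nearly all others. In 32 of the 71 genes a stem-loop of 16 bases was found in an annotated transcript. For 34 genes the gene model holds coding sequence alone and so ends before any stem-loop could be found. The most common forms are given 5′ to 3′ on the mRNA strand as DNA letters from GENCODE, with the 4 bases of the loop in capitals.
Form in 6 H2A, 8 H2B and 3 H3 genes, among them HIST1H2AI and HIST2H2BE: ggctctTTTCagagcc
Form in 5 H4 genes, among them HIST1H4J and HIST4H4: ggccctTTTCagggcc
Form in HIST1H4I, HIST2H4A and HIST2H4B: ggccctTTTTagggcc
Form in 3 H2B and 2 H3 genes, among them HIST1H2BC and HIST1H2BD: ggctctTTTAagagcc
Forms were shared within a class, and the H4 genes had forms that no gene of another class had. HIST1H3E and HIST1H2AG had a form of their own.

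The proteins are more alike than the genes. Of the 15 H4 genes, 14 encode the same protein, and of the 15 H3 genes, 10 do. The largest set with an identical protein held 5 of 17 H2A genes and 5 of 18 H2B genes, and all 6 H1 proteins differed. Sequence similar enough to share reads was found for fewer genes. Windows of 50 bases were compared between gene models, and 35 genes shared none with another member while 13 shared at least 50% of theirs. HIST2H3A and HIST2H3C shared 100% of windows, HIST2H2AA3 shared 100% with HIST2H2AA4, and HIST2H4A shared 97.5% with HIST2H4B. HIST1H4K shared 100% of its windows with HIST1H4J, and HIST1H2AJ shared 83.7% with HIST1H2AI. For these genes the split of reads between copies is uncertain, and sums are given for the HIST2 pairs and for HIST1H2AI with HIST1H2AJ.

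The 250 bases before the annotated start were taken from RefSeq for 66 of the 71 genes (GRCh38.p14) and searched on both strands. CCAAT was present in 84.8% of the 66 promoters and in 32.0% of all 35116 promoters of that length. TATAAA was present in 66.7% of them against 10.7% of all promoters. ATTTGCAT, the octamer bound by OCT factors, was present in 39.4% against 1.6%. Its presence depended on class, with 77.8% of H2B and 68.8% of H2A promoters holding it and 0 of the 6 H1 and 13 H4 promoters. CCAAT was in every H1, H2A, H2B and H3 promoter matched but in 3 of 13 H4 promoters. CACGTG, the E box that MYC-MAX dimers bind, was present in 0 of the 66 promoters and in 6.3% of all promoters. These are matches of letters and not tests of binding. A promoter of each kind that the results below turn on is printed 5′ to 3′ on the strand of the gene, with matches to the first 3 of these motifs, on either strand, in capitals.
HIST1H1C, RefSeq GRCh38.p14, chr6:26056471-26056720, minus strand: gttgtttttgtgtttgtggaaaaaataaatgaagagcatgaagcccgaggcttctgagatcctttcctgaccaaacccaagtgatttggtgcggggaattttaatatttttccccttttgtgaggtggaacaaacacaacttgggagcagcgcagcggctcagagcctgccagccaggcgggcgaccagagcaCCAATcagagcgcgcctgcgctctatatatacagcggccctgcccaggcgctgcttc
HIST1H1B, RefSeq GRCh38.p14, chr6:27867589-27867838, minus strand: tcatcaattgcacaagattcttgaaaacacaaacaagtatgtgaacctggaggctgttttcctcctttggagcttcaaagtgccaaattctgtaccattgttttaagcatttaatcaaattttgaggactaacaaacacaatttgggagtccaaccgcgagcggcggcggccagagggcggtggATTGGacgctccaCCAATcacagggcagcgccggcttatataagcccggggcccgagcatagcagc
HIST1H2AC, RefSeq GRCh38.p14, chr6:26123922-26124171, plus strand: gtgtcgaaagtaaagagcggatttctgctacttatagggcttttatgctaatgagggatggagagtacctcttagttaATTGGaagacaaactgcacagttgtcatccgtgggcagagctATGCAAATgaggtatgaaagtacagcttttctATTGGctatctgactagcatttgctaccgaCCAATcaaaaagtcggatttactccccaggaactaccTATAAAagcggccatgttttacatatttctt
HIST1H1C was high in both lines and HIST1H1B in Ramos cells alone, and both stretches hold CCAAT. The stretch shown for HIST1H2AC overlaps, on the other strand, nearly all of the promoter of HIST1H2BC.

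The libraries held the markers of their lines. EPCAM ranged from 99.1 to 187.2 RPKM in HCT116 cells and was at most 0.126 in Ramos cells, and KRT8, KRT18 and CDH1 were likewise high in HCT116 cells alone, whereas VIL1 was near 0 in both. MS4A1, CD79A, CD79B and PAX5 were each at 38.6 RPKM or more in every Ramos library and at 0.414 or less in HCT116 cells. The number of reads is unknown. The sum of RPKM over all genes ran from 593633 to 660769 in untreated HCT116 cells, from 742468 to 1051041 at 6 h of Omomyc and from 659047 to 729627 at 24 h, and from 783788 to 973736 in Ramos libraries. Nothing in the labels says that replicates were separate cultures, so adjusted p-values measure the spread between libraries, which may be technical.

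The level of the histone genes moved in opposite directions in the lines at 6 h and was nearer to the untreated level at 24 h. In untreated HCT116 cells the RPKM of the 71 genes summed to 18774, 18385 and 18712 in the 3 libraries. At 6 h the sum was 11309, 11956 and 10060 with 2 µM Omomyc and 8492, 7730 and 7831 with 10 µM. The treated libraries lay below every untreated one, and those with 10 µM lay below those with 2 µM. At 24 h the sum was 15764, 14912 and 16397 with 2 µM and 16082, 16479 and 15857 with 10 µM, still under each untreated library. The means were 59.6% and 43.1% of the untreated mean at 6 h, and 84.3% and 86.7% at 24 h, for the lower and the higher dose.

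In untreated Ramos cells the same sum was 17227, 18501 and 20533. At 6 h it was 21769, 26463 and 27180 with 0.5 µM Omomyc and 24072, 24777 and 26433 with 2.5 µM. All 6 treated libraries lay above the 3 untreated ones, and the doses overlapped. At 24 h it was 16940, 18444 and 15680 with 0.5 µM and 19627, 17248 and 19066 with 2.5 µM, values that overlapped with the untreated libraries. The means were 134.0% and 133.8% of untreated at 6 h, and 90.8% and 99.4% at 24 h. As a share of all RPKM, the histone genes took 2.78 to 3.16% in untreated HCT116 cells, 0.745 to 1.07% at 6 h of 10 µM, 1.87 to 2.33% in untreated Ramos cells and 2.85 to 3.16% at 6 h of 2.5 µM. The sum that these shares divide by holds noncoding RNAs of very high level. RN7SL1 alone measured 33081 to 56067 RPKM in untreated HCT116 cells and 75521 to 207392 at 6 h of 10 µM. In Ramos cells it measured 74318 to 103231 untreated and 62324 to 67148 at 6 h of 2.5 µM. The shares, and any scaling to equal sums, thus depend on such RNAs as well as on the histone genes. In bulk libraries, fewer cells that carry an mRNA and less of it per cell cannot be told apart.

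**Figure D1:**
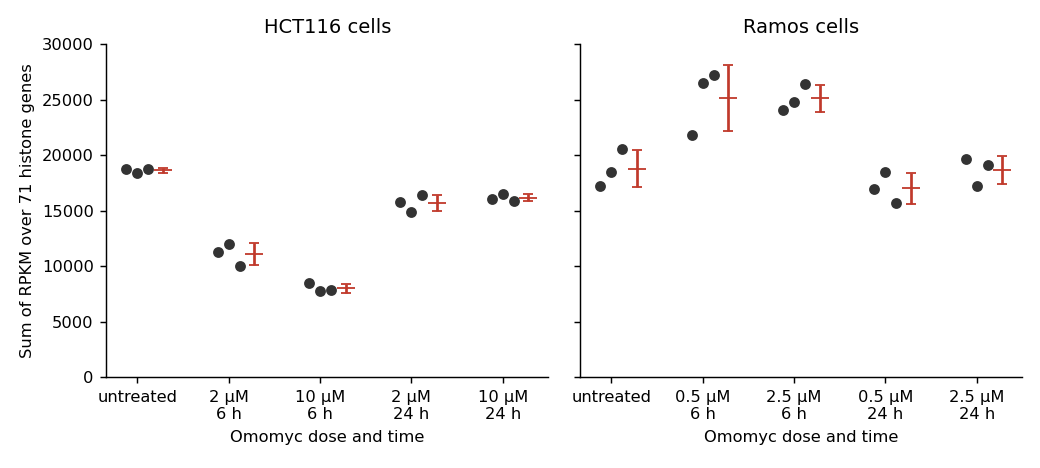
Sum of RPKM over the 71 histone cluster genes (vertical axis, linear from 0) in each of 30 libraries, by cell line, Omomyc dose and time. Dots are libraries, and the red mark beside them is the mean with its SD (n = 3). In HCT116 cells the mean was 18624 untreated and 8018 at 6 h of 10 µM, and in Ramos cells it was 18754 untreated and 25094 at 6 h of 2.5 µM.

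The first question was how each gene answered 6 h of Omomyc in HCT116 cells. With 10 µM, 51 of the 71 genes were expressed highly enough to be tested with limma, and 47 of them fell while 0 rose. Over all 14785 genes tested, 21.2% were called lower in this comparison and 8.84% higher. Leaving out 1 library at a time gave 42 to 49 genes called. The count was 42 without untreated replicate 2, and 49 without replicate 3 of the treated group, the library with the highest sum of RPKM. The median log2 fold change of the 51 genes was -1.14, against -0.11 over all genes, and each of the 51 values was negative. With 2 µM, 47 of 51 fell and 0 rose, against 31.8% of all genes lower and 15.5% higher, and the median was -0.72 against -0.12. The 4 genes not called with 10 µM were HIST2H3C (-0.48), HIST2H4B (-1.16), HIST1H1T (-0.30) and HIST1H2BE (-0.51). With 2 µM they were HIST1H3C (-0.22), HIST1H1T (-0.07), HIST1H2BE (0.14) and HIST1H2AJ (-0.18). Of these, HIST1H1T, the testis H1, HIST1H2BE and HIST1H3C were at 3.07 RPKM or less in every HCT116 library, and HIST2H3C, HIST2H4B and HIST1H2AJ are near copies of another member.

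Genes of every class fell. With 10 µM at 6 h, 2 of 3 H1 genes tested, 15 of 15 H2A, 12 of 13 H2B, 8 of 9 H3 and 10 of 11 H4 genes were lower, with medians of -1.08, -1.11, -1.33, -1.08 and -1.05. The summed level of each class was between 40.7% (H1) and 44.7% (H2A) of the untreated level. With 2 µM these shares ran from 56.9% (H1) to 61.3% (H2B). The shares of the classes thus lay within a few points of each other at each dose.

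The H1 gene with the highest mean level was HIST1H1C (ENSG00000187837, chr6:26055787-26056428), 1 of the somatic linker histones. It measured 1112, 1065 and 1107 RPKM in untreated HCT116 cells, 571, 554 and 513 at 6 h of 2 µM, and 412, 396 and 355 at 6 h of 10 µM. At 24 h it measured 865, 874 and 829 with 2 µM and 864, 846 and 812 with 10 µM. No treated library reached an untreated one, and the 6 h values lay below all 24 h values. The log2 fold change at 10 µM and 6 h was -1.50 ± 0.11 (SE, adjusted p = 0.000435) and at 24 h -0.38 ± 0.06 (adjusted p = 0.00161). In Ramos cells it measured 604, 586 and 657 untreated, 714, 772 and 842 at 6 h of 0.5 µM, and 807, 797 and 890 at 6 h of 2.5 µM. At 24 h it measured 544, 604 and 545 with 0.5 µM and 614, 631 and 679 with 2.5 µM. The 6 h values lay above all untreated values, by 0.43 ± 0.06 on the log2 scale with 2.5 µM (adjusted p = 0.00118), and the 24 h values overlapped with them.

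Of the core histones, HIST1H2BD, an H2B gene whose mRNA can also be polyadenylated, measured 920, 842 and 911 RPKM in untreated HCT116 cells. It measured 533, 551 and 461 at 6 h of 2 µM and 375, 334 and 357 at 6 h of 10 µM, and the 3 groups did not overlap. The log2 fold changes were -0.79 ± 0.09 and -1.33 ± 0.11 (adjusted p = 0.000162 and 0.00054). In Ramos cells it measured 711, 766 and 837 untreated and 1030, 1140 and 1198 at 6 h of 2.5 µM, a rise of 0.54 ± 0.07 (adjusted p = 0.00109).

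HIST1H3B, an H3 gene, measured 709, 659 and 670 RPKM in untreated HCT116 cells, 507, 533 and 453 at 6 h of 2 µM and 368, 318 and 349 at 6 h of 10 µM. In Ramos cells it measured 691, 698 and 861 untreated, 1002, 1198 and 1355 at 6 h of 0.5 µM and 1128, 1182 and 1223 at 6 h of 2.5 µM. Treated and untreated libraries did not overlap in either line at 6 h. The log2 fold change was -0.98 ± 0.11 with 10 µM in HCT116 cells (adjusted p = 0.00158) and 0.66 ± 0.08 with 2.5 µM in Ramos cells (adjusted p = 0.000746).

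HIST1H2AI, an H2A gene, went from 766, 773 and 777 RPKM to 359, 343 and 348 at 6 h of 10 µM in HCT116 cells (-1.14 ± 0.10, adjusted p = 0.000598). In Ramos cells it went from 728, 823 and 921 to 1178, 1173 and 1164 with 2.5 µM (0.51 ± 0.08, adjusted p = 0.00171). The H4 gene HIST1H4J fell from 1135, 1265 and 1170 to 550, 535 and 471 in HCT116 cells (-1.20 ± 0.12, adjusted p = 0.00103). In Ramos cells it was the member with the highest level, at 2081, 2228 and 2560 untreated and 2439, 2705 and 2941 with 2.5 µM at 6 h. Those groups overlapped, and the difference of 0.24 ± 0.09 was not called (adjusted p = 0.0865). HIST1H2AI and HIST1H4J each have a near copy, as given above. HIST1H2AI and HIST1H2AJ together summed to 1017, 1007 and 1017 RPKM in untreated HCT116 cells, to 653, 743 and 618 at 6 h of 2 µM and to 529, 503 and 533 at 6 h of 10 µM, with no overlap between the groups.

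The other leading genes of each class went the same way. With 10 µM at 6 h in HCT116 cells, the log2 fold change was -1.08 for the H1 gene HIST1H1E, -1.10 and -1.49 for the H2B genes HIST1H2BC and HIST1H2BJ, -1.37 and -1.22 for the H3 genes HIST1H3H and HIST1H3J, and -0.88 for the H4 gene HIST1H4C. With 2.5 µM at 6 h in Ramos cells, it was 0.53 for HIST1H1E, 0.51 for HIST1H2BC, 0.38 for HIST1H2BJ, 0.58 for HIST1H3H, 0.34 for HIST1H3J and 0.32 for HIST1H4C. Each of these passed the test. HIST1H3J overlaps HIST1H2AM, so its reads cannot be fully told apart.

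**Figure D2:**
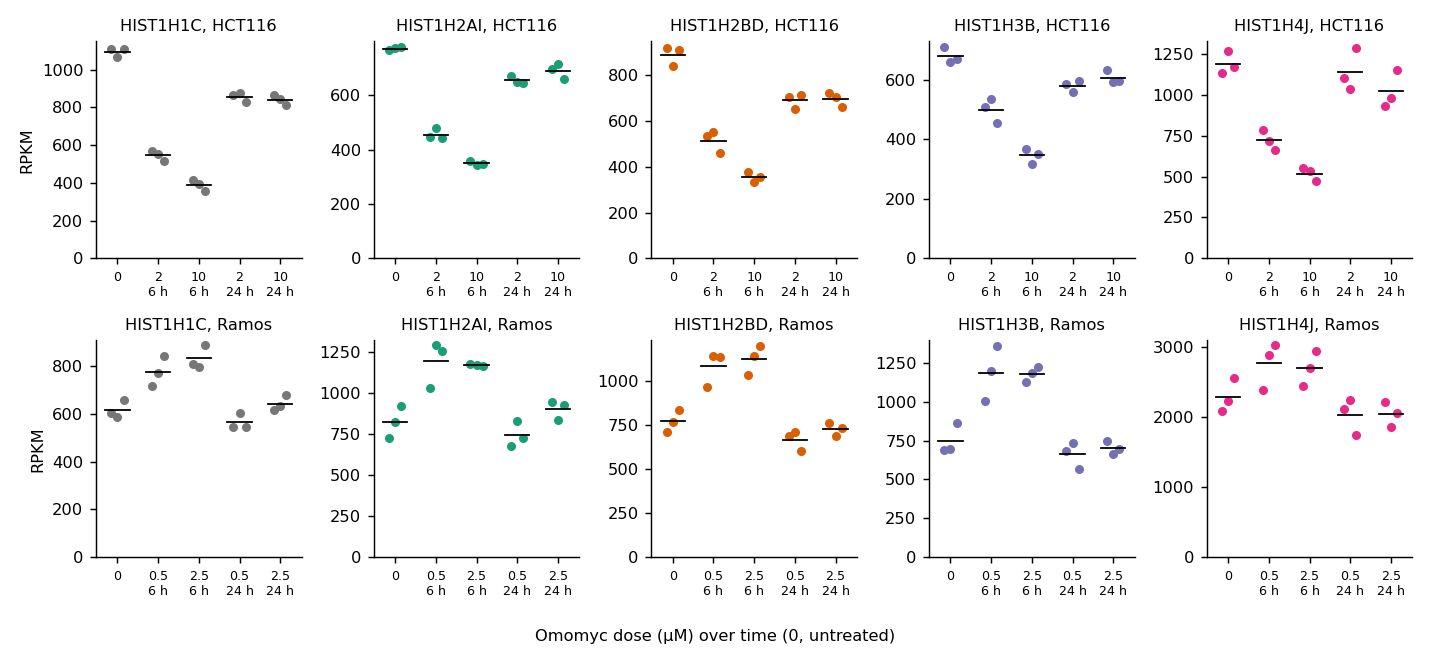
RPKM in each library (vertical axes, linear from 0) of HIST1H1C, HIST1H2AI, HIST1H2BD, HIST1H3B and HIST1H4J by Omomyc dose in µM and time, with HCT116 cells in the upper row and Ramos cells in the lower. Dots are libraries and bars are means of 3. HIST1H1C fell to between 355 and 412 at 6 h of 10 µM in HCT116 cells and stood at between 797 and 890 at 6 h of 2.5 µM in Ramos cells.

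The largest falls in HCT116 cells at 6 h were in genes of intermediate level. HIST1H2BL, an H2B gene, measured 173, 167 and 171 RPKM untreated and 51.7, 41.0 and 46.5 with 10 µM, a log2 fold change of -1.87 ± 0.11 (adjusted p = 0.000205). HIST3H2BB, an H2B gene outside the large clusters, went from 97.8, 89.0 and 96.1 to 29.1, 27.6 and 26.5 (-1.75 ± 0.09, adjusted p = 0.000145). Its divergent partner HIST3H2A went from 133, 146 and 134 to 49.2, 40.5 and 45.4, and was called lower at both doses, with a log2 fold change of -1.37 with 2 µM. HIST2H3A, an H3 gene, changed by -1.76 ± 0.16 with 10 µM, but its copy HIST2H3C was at -0.48. The pair summed to 549, 562 and 545 RPKM untreated and to 250, 240 and 221 with 10 µM, values that did not overlap.

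The genes outside HIST1 behaved alike at 6 h in HCT116 cells. Of those tested, HIST2H3C and HIST2H4B alone were not called lower with 10 µM, and the pair of HIST2H4A and HIST2H4B summed to 1810, 1835 and 1985 RPKM untreated and to 774, 720 and 700.4 with 10 µM. HIST2H2AA3 and HIST2H2AA4, H2A genes with near-identical sequence, summed to 1930 ± 19.0 and 789 ± 54.9 (SD, n = 3). HIST2H2AB and HIST2H2AC, also H2A genes, had log2 fold changes of -1.11 and -1.05. HIST2H2BE and HIST2H2BF, both H2B genes, were at -1.35 and -1.16, and HIST2H3D, an H3 gene, was at -1.24. HIST4H4, the H4 gene on chromosome 12, fell from 72.9, 83.0 and 82.8 RPKM to 37.2, 35.5 and 34.6, which is a log2 fold change of -1.14 ± 0.10 (adjusted p = 0.000551). HIST2H3PS2 and HIST3H3 were too low to test.

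In Ramos cells the question was the same at 6 h, with 55 of the 71 genes tested. With 2.5 µM, 41 rose and 1 fell, against 17.3% of all 13595 genes called higher, 10.7% lower and 27.9% in either direction, and the median log2 fold change was 0.36 against 0.03. With 0.5 µM, 33 rose and 1 fell, against 13.8% of all genes higher and 9.73% lower, and the median was 0.34 against 0.02. The count of 34 calls with 0.5 µM was 20 without replicate 2 of the treated group and 21 without replicate 3 of it. By class, with 2.5 µM, 3 of 4 H1, 13 of 16 H2A, 11 of 14 H2B, 7 of 8 H3 and 7 of 13 H4 genes rose.

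The largest rise was in HIST2H3A, from 307, 278 and 278 RPKM to 524, 527 and 544 with 2.5 µM (0.89 ± 0.05, adjusted p = 2.41e-05). HIST2H3A and HIST2H3C together went from 502 ± 11.9 (SD, n = 3) to 850 ± 63.3. HIST2H2AA4 was at 0.72 ± 0.08 (adjusted p = 0.000514), and with HIST2H2AA3 it summed to 1360 ± 141 untreated and 2106 ± 66.6 with 2.5 µM. HIST1H2BN, an H2B gene, rose from 55.9 ± 0.858 to 90.6 ± 2.37, by 0.69 on the log2 scale. With 0.5 µM the largest rises were in HIST2H3A (0.82), HIST2H2AA4 (0.81) and HIST1H4A (0.66), an H4 gene. Of the genes outside HIST1, HIST3H2A (0.36), HIST3H2BB (0.50), HIST2H2BE (0.34), HIST2H2AC (0.18), HIST2H4A (0.33) and HIST4H4 (0.29) also rose with 2.5 µM, and HIST2H2AB (0.04), HIST2H2BF (-0.29) and HIST2H4B (0.10) were not called.

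HIST2H3D went the other way from the other H3 genes. It measured 116, 129 and 139 RPKM in untreated Ramos cells, 84.3, 97.5 and 104 at 6 h of 0.5 µM and 95.1, 89.2 and 102 at 6 h of 2.5 µM. At 24 h it was back at 117, 124 and 111 with 0.5 µM and 141, 115 and 122 with 2.5 µM. The 6 h libraries lay below the untreated ones, with log2 fold changes of -0.43 ± 0.09 and -0.42 ± 0.07 (adjusted p = 0.00747 and 0.00309). It shares 37.8% of its windows with HIST2H3A and with HIST2H3C.

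The groups at 24 h were nearer to the untreated cells. In HCT116 cells with 2 µM, 31 of 51 genes were lower and 1 higher, against 10.8% of all genes lower and 16.6% higher, with a median of -0.25 against 0.04. With 10 µM, 24 of 53 were lower and 3 higher, against 15.7% lower and 19.5% higher, with a median of -0.20 against 0.02. When the spread was taken from all 5 HCT116 groups, 11 and 8 of 51 were called in either direction. Of all 14826 genes 1113 and 2535 were then called, so the count of 8 with 10 µM was near the share of all genes. The called rises were HIST2H3C at both doses (0.18 and 0.52), HIST2H4B with 10 µM (0.66) and HIST1H2BB with 10 µM (0.82), an H2B gene at or below 1.54 RPKM. HIST2H4B had a log2 fold change of -1.36 with 2 µM, while HIST2H4A and HIST2H4B together were at 1495 ± 116 with 2 µM and 1625 ± 87.8 with 10 µM, against 1877 untreated. HIST2H3A was at -0.55 and -0.70 at these doses, and its sum with HIST2H3C was 452 ± 46.8 and 476 ± 48.1, against 552 ± 8.82. The opposite calls within these pairs thus have no counterpart in their sums. HIST1H3E, an H3 gene, was at -0.46 with 2 µM, and HIST3H2BB at -0.40 with 10 µM.

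In Ramos cells at 24 h, 0 of 55 genes were called with 0.5 µM, against 0.0146% of all genes higher and 0 lower. An unadjusted p under 0.05 was found for 23 of the 55, and for 763 of all 13674 genes. The median was -0.15, against 0.02 over all genes. Differences were negative for 49 of the 55, and for 5831 of the 13674. With 2.5 µM, HIST2H3A was called higher by 0.25 on the log2 scale, and HIST1H4C and HIST1H4D lower by 0.33 and 0.31. Over all genes 3.3% were called higher, 1.31% lower and 4.61% in either direction. The count of 3 of 55 was thus near the share of all genes. HIST2H3A and its copy HIST2H3C summed to 579 ± 44.15 RPKM in this group, against 502 ± 11.9 untreated (SD, n = 3). The count of 3 was 0 without any 1 library of the 2.5 µM group, and 6, 1 and 5 without untreated replicates 1, 2 and 3. HIST1H4C, an H4 gene, measured 607, 687 and 673 RPKM untreated and 532, 494 and 533 with 2.5 µM at 24 h, with no overlap.

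**Figure D3:**
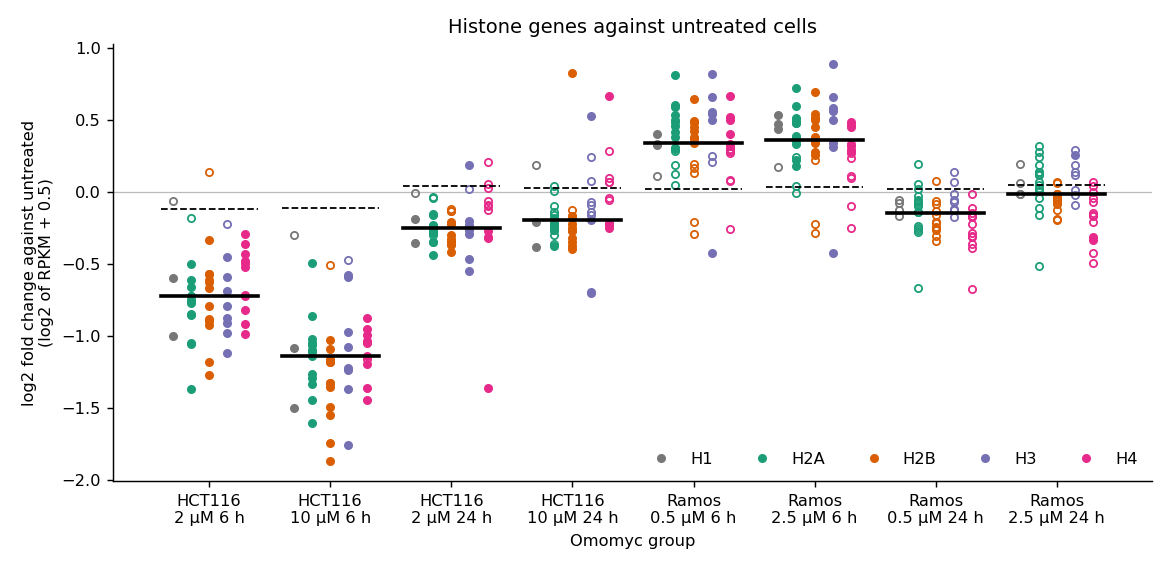
Log2 fold change of each histone gene tested against the untreated cells of its line (vertical axis, on log2 of RPKM + 0.5) in 8 Omomyc groups, colored by class. Filled dots passed an adjusted p under 0.05, solid bars are the medians of the histone genes and dashed bars those of all genes tested. The solid bar was at -1.14 for HCT116 at 10 µM and 6 h, at 0.36 for Ramos at 2.5 µM and 6 h, and at -0.02 for Ramos at 2.5 µM and 24 h.

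The change from 6 to 24 h was tested directly between treated groups, which use no untreated library. In HCT116 cells, 39 of 51 genes were higher at 24 h than at 6 h with 2 µM and 1 was lower, against 30.9% of all genes higher and 9.85% lower. With 10 µM, 45 of 50 were higher and 0 lower, against 5.8% higher, 2.06% lower and 7.86% in either direction, with medians of 0.48 and 0.99. The 1 lower gene was HIST2H4B. Without replicate 1 or replicate 2 of 24 h at 10 µM, the count of 45 was 29. In Ramos cells, 47 of 55 genes were lower at 24 h with 0.5 µM and 43 with 2.5 µM, against 13.5% and 10.4% of all genes lower and, for 0.5 µM, 25.4% in either direction, and the medians were -0.52 and -0.36. HIST2H3D alone was higher at 24 h, at both doses (0.30 and 0.40), against 11.9% and 12.7% of all genes higher.

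The doses were compared at the same times. In HCT116 cells at 6 h, 48 of 50 genes had a lower value with 10 µM than with 2 µM, with a median of -0.49 against -0.02 over all genes. Limma called 0 of the 50, and 0% of the 14601 genes tested. An unadjusted p under 0.05 was found for 36 of the 50, and for 1242 of the 14601. When the spread was taken from all 5 HCT116 groups, 26 of 51 were called, and 137 of all 14826 genes. Without replicate 3 of 10 µM at 6 h, 5 were. For HIST1H1C the difference was -0.49 with a 95% interval of -0.80 to -0.19. At 24 h 1 of 53 was called, HIST2H4B (2.03), against 0.14% of all genes higher and 0.0399% lower. In Ramos cells at 6 h 0 of 55 were called, against 0.429% of all genes in either direction, and the median was 0.01. An unadjusted p under 0.05 was found for 1 of the 55, and for 1373 of all 13511 genes. The median half-width of the 95% intervals was 0.19, and that for HIST1H3B ran from -0.21 to 0.21. At 24 h, HIST1H1B alone was higher with 2.5 µM than with 0.5 µM (0.27), against 2.39% of all genes higher and 1.86% lower, and the median was 0.15. The count of 1 was 0 without replicate 1 of 0.5 µM or replicate 3 of 2.5 µM. It was 6 without replicate 2 and 3 without replicate 3 of 0.5 µM. With equal sums of RPKM it was 34, where 2563 of all 13629 genes were called. The count at 6 h was 2 without replicate 1 of 0.5 µM.

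The difference in response between the lines was tested as an interaction of line and treatment at 6 h, with 2 µM in HCT116 and 2.5 µM in Ramos cells. These doses are the nearest pair but are not equal. Of 57 genes tested, 47 had a lower change in HCT116 cells and 0 a higher one, against 28.4% and 12.2% of all 15562 genes. The median of the differences was -1.02 on the log2 scale, against -0.14 over all genes. Some members were near 0 in HCT116 cells and could change in Ramos cells alone. Among the 48 genes with a mean of at least 0.5 RPKM in both lines, 43 were called and the median was -1.11. Of these 48, 36 were called lower in HCT116 and higher in Ramos cells, each against its own untreated group, and HIST2H3D was lower in both. Of all 11296 genes tested in both lines with a mean of at least 0.5 RPKM in each, 5.52% were lower in HCT116 and higher in Ramos cells. The difference was -1.44 ± 0.09 for HIST1H1C, -1.36 ± 0.17 for HIST2H2AA3, -1.34 ± 0.12 for HIST1H2BD, -1.11 ± 0.12 for HIST1H3B and -0.96 ± 0.13 for HIST1H4J, all with adjusted p of 0.000217 or less. At 24 h, 13 of 57 genes were lower in HCT116 and 1 was higher, against 9.51% and 6.81% of all genes, and the higher 1 was HIST1H4C (0.39). The count of 14 was 9 without any 1 of 6 libraries, namely replicates 1 and 3 of untreated HCT116, replicate 1 of 2 µM, replicate 2 of untreated Ramos, and replicates 1 and 3 of 2.5 µM.

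**Figure D4:**
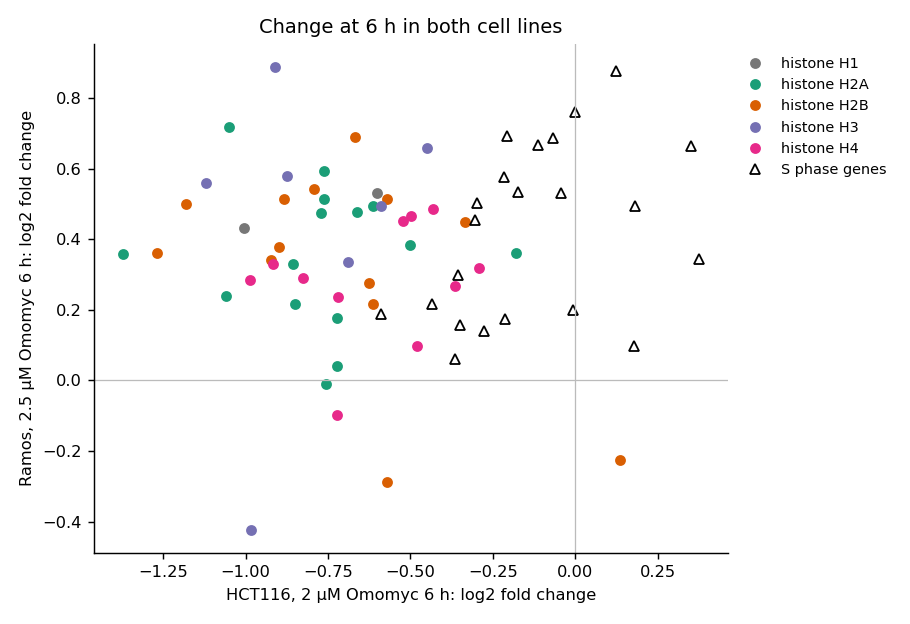
Log2 fold change against untreated cells at 6 h in HCT116 cells with 2 µM Omomyc (horizontal axis) and in Ramos cells with 2.5 µM (vertical axis), for 48 histone genes found in both lines (dots, by class) and 22 S phase genes (triangles). Of the 48 dots, 36 were called lower in HCT116 and higher in Ramos cells and so lie in the upper left.

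These directions at 6 h did not depend on how libraries were scaled. Giving each library the same sum of RPKM moved the median of all genes to -0.56 in HCT116 cells with 10 µM and 6 h and that of the histone genes to -1.62, and with median-ratio scaling they were 0.02 and -0.99. In Ramos cells with 2.5 µM and 6 h the medians were 0.16 and 0.50 with equal sums and near 0 and 0.32 with median-ratio scaling. With equal sums 4.37% of the calls over all genes in HCT116 cells at 10 µM and 6 h were higher, and with median-ratio scaling 49.5%, in place of 29.4%. In Ramos cells with 2.5 µM and 6 h these shares were 85.2% and 51.5%, in place of 61.8%. At 24 h in Ramos cells with 2.5 µM, the median of the histone genes was 0.19 with equal sums in place of -0.02, and that of all genes 0.24.

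Histone mRNA is abundant in S phase, so S phase genes were read beside the members. The list holds 22 genes of DNA replication and S phase entry, and it was tested in the same fits. In Ramos cells with 2.5 µM at 6 h, 20 of 22 rose and 0 fell, with a median of 0.47. PCNA, the sliding clamp of the replication fork, went from 185 ± 6.83 to 267 ± 8.13 RPKM (0.53), RRM2, a subunit of ribonucleotide reductase, was at 0.69, MCM7 and MCM3 of the replicative helicase at 0.50 and 0.16, and CCNE2, a cyclin of S phase entry, at 0.66. At 24 h 11 of 22 were higher with 2.5 µM and 0 with 0.5 µM, against 3.3% and 0.0146% of all genes. Over all genes 17.3% rose and 10.7% fell in that comparison with 2.5 µM at 6 h. In HCT116 cells with 10 µM at 6 h, 1 of 22 rose and 6 fell, against 8.84% and 21.2% of all genes, with a median of -0.29, where the histone genes had -1.14. With 2 µM at 6 h, 3 rose and 10 fell, against 15.5% and 31.8% of all genes. At 24 h, 10 fell at each dose, against 10.8% of all genes with 2 µM and 15.7% with 10 µM. At these doses 1 and 2 rose, against 16.6% and 19.5% of all genes. With 10 µM at 6 h CCNE2 rose from 21.5 ± 0.685 to 27.6 ± 1.63 (0.35, adjusted p = 0.0275), and PCNA (-0.21), RRM2 (-0.20), MCM7 (-0.45) and MCM3 (-0.56) were not called. Values there were negative for 19 of the 22 genes, down to -0.69, and for 8870 of all 14785 genes. For 14 of the 22 every treated library lay below every untreated one, as it did for 5158 of all 14785. In the interaction at 6 h, 18 of 22 S phase genes were lower in HCT116 cells, against 28.4% of all genes. Their median was -0.65, against -0.14 over all genes. The part of S phase in the histone levels was not tested.

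Genes that make and process histone mRNA were read at 6 h. SLBP measured 76.7 ± 2.82 RPKM in untreated HCT116 cells and 74.9 ± 2.84 at 6 h of 10 µM (-0.04, adjusted p = 0.791), and 76.2 ± 1.95 and 99.1 ± 4.14 in Ramos cells at 6 h of 2.5 µM (0.38, adjusted p = 0.000559). NPAT measured 13.8 ± 0.56 and 11.6 ± 0.286 in HCT116 cells (-0.25, adjusted p = 0.0836) and 17.4 ± 0.359 and 16.4 ± 0.584 in Ramos cells (-0.08). Of the 16 genes of this list, 1 rose and 6 fell in HCT116 cells with 10 µM at 6 h, with a median of -0.18, and 3 rose and 1 fell in Ramos cells with 2.5 µM, with a median of 0.10. Over all genes 8.84% rose and 21.2% fell in the first comparison, and 17.3% rose and 10.7% fell in the second, so the counts of the list in Ramos cells were near those of all genes. CPSF3, the endonuclease that cuts histone pre-mRNA, was lower in both (-0.63 and -0.19), while SRRT and NCBP2, which act with the cap, were called in neither.

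Replication-independent histone variants, which mostly have polyadenylated mRNAs and can be deposited outside S phase, are encoded elsewhere. Of 11 tested in HCT116 cells with 10 µM at 6 h, 0 rose and 4 fell, with a median of -0.24. H3F3B (-0.07) and H3F3A (-0.41) of H3.3, H2AFZ (-0.23) of H2A.Z and H2AFY (-0.07) of macroH2A were not called, but H1F0, the linker histone of resting cells, fell from 117 ± 4.25 to 48.2 ± 0.99 RPKM (-1.28, adjusted p = 0.000324). In Ramos cells with 2.5 µM at 6 h, 5 of 8 rose and 0 fell. H2AFX, whose mRNA can end in a stem-loop as well as in poly(A), rose there from 71.3 ± 6.49 to 186 ± 16.8 (1.38, adjusted p = 2.66e-05). H2AFZ (0.17) and H2AFY (0.24) also rose, while H3F3B and H3F3A (0.06) were not called. H1F0 and H2AFX were named after their values were seen. Of 11 histone chaperone genes, 0 rose and 4 fell in HCT116 cells with 10 µM at 6 h, among them NASP (-0.48), RBBP4 (-0.45) and RBBP7 (-0.45), and 5 rose and 0 fell in Ramos cells with 2.5 µM, among them RBBP4 (0.17) and RBBP7 (0.25). ANP32E was called in neither. In these comparisons 21.2% of all genes were lower in HCT116 cells and 17.3% higher in Ramos cells.

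A few of the cluster genes can also make polyadenylated mRNA, and 9 of these were set apart, among them HIST1H1C, HIST1H2BC, HIST1H2BD, HIST2H2BE and HIST4H4. With 10 µM at 6 h in HCT116 cells, 9 of 9 fell with a median of -1.34, and 38 of 42 other members fell with a median of -1.10. With 2.5 µM at 6 h in Ramos cells, 9 of 9 rose with a median of 0.38, and 32 of 46 others rose with a median of 0.35. Over all genes 21.2% fell in the first of these comparisons and 17.3% rose in the second, with medians of -0.11 and 0.03. The divergent pairs were followed as well. Of 9 pairs with both genes tested in HCT116 cells with 10 µM at 6 h, 9 had both genes lower, and their log2 fold changes differed by a median of 0.30. The widest gap was that of HIST1H2AJ (-0.50) and HIST1H2BM (-1.33), 0.83. Of 10 pairs in Ramos cells with 2.5 µM, 9 had both genes higher, with a median gap of 0.12, and the other was HIST1H2AD (-0.01) and HIST1H2BF (0.22). Of all members tested, 47 of 51 fell in that HCT116 comparison and 41 of 55 rose in that Ramos comparison. Members that are not a pair would thus often be called alike too, and the gaps were not set against those of such members.

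Most histone genes expressed in 1 line were expressed in the other, with a mean of at least 0.5 RPKM taken as expressed. Over the 15 libraries of each line, treated and untreated, 48 genes had a mean of at least 0.5 RPKM in both, 3 in HCT116 alone, 7 in Ramos alone and 13 in neither. Of the members expressed in either line 82.8% were thus expressed in both, against 68.0% of all genes expressed in either line. The 13 included the testis genes HIST1H2AA, HIST1H2BA and HIST3H3. Each line had a similar number of highly expressed members, with 39 at 100 RPKM or more in untreated HCT116 cells and 38 in Ramos cells. The leading gene was HIST2H4A in HCT116 cells, at 1858 ± 95.1 (SD, n = 3), and HIST1H4J in Ramos cells, at 2290 ± 245.

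The 7 genes found in Ramos cells were HIST1H1B, HIST1H1D, HIST1H2AL, HIST1H2BG, HIST1H3I, HIST1H4I and HIST1H4L. HIST1H1B, the linker histone H1.5, measured 585, 599 and 636 RPKM in untreated Ramos cells and was listed at 0 in 13 of 15 HCT116 libraries, with a highest value of 0.0458. HIST1H1D, the linker histone H1.3, measured 152, 156 and 156 and was listed at 0 in 14 of 15. HIST1H2AL, HIST1H1B, HIST1H3I and HIST1H4L stand next to each other in the order of the histone genes on chromosome 6, between HIST1H2AK and HIST1H3J, which were expressed in both lines (165 and 102 RPKM, and 385 and 321, in untreated HCT116 and Ramos cells). HIST1H2BG and HIST1H2AE, a divergent pair, lie near HIST1H1D. HIST1H2AE was at 0.93 RPKM in untreated HCT116 and 161 in untreated Ramos cells. Between them and HIST1H1D lies HIST1H3E, which had the reverse pattern, at 8.24 ± 0.937 in HCT116 and at 0.0079 ± 0.0136 in Ramos cells. HIST1H1T and HIST1H3C were the other genes found in HCT116 cells, at medians of 2.17 and 0.748 RPKM over the 15 libraries. In Ramos cells, the 6 h rise of HIST1H1B was 0.47 ± 0.07 with 2.5 µM (adjusted p = 0.00135).

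Among the genes tested between untreated lines, 22 of 57 were higher in Ramos cells and 27 lower, against 39% and 45.7% of all 15647 genes and 84.6% in either direction, and the median of -0.06 was close to that of all genes, -0.09. With equal sums of RPKM the medians were -0.64 and -0.62. After the length trend was removed they parted, at -0.61 for the histone genes and 0.07 for all genes. The share of members called was near that of all genes. Among genes expressed in both lines those most in favour of Ramos cells were HIST1H2AE, given above, HIST1H4H, an H4 gene at 97.7 ± 0.845 RPKM in HCT116 and 667 ± 40.3 in Ramos cells (2.76), and HIST1H4K, a near copy of HIST1H4J (2.22). Those most in favour of HCT116 cells included HIST2H2BF and HIST1H2AB. HIST2H2BF, an H2B gene, measured 307, 308 and 298 RPKM in HCT116 and 21.5, 22.2 and 25.2 in Ramos cells, a log2 difference of -3.70 ± 0.06. HIST1H2AB was at 271 ± 4.59 and 69.0 ± 12.2 (-1.98 ± 0.12). HIST1H3B (0.14), HIST1H2AI (0.09), HIST1H2AH (0.01), HIST1H2BK (-0.06), HIST1H2BF (0.00), HIST1H2AG (0.13), HIST1H2AD (0.14) and HIST3H2BB (-0.14) were not called.

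**Figure D5:**
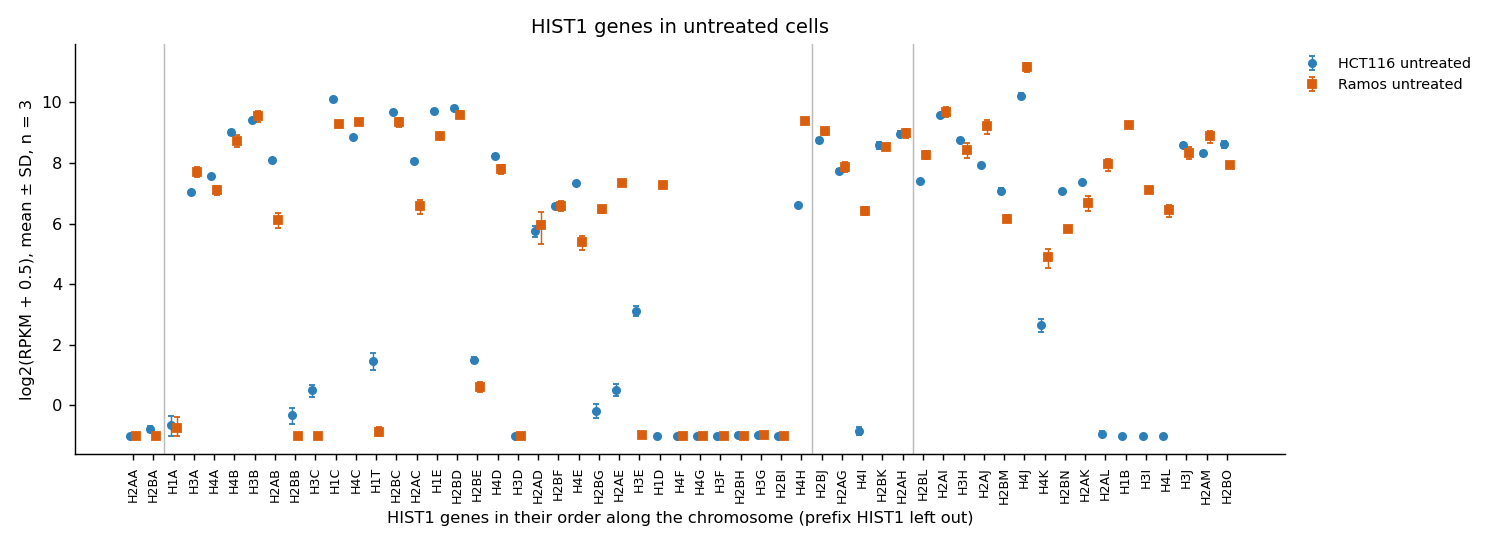
Mean level with SD (n = 3) of the 55 HIST1 genes in untreated HCT116 cells (circles) and untreated Ramos cells (squares), on a log2 scale of RPKM + 0.5 where a gene at 0 lies at -1, in the order of the genes along chromosome 6. Vertical lines part the 4 blocks of genes. H2AL, H1B, H3I and H4L, next to each other in the last block, were at 85.8 to 607 RPKM in Ramos cells and at 0.0217 or less in HCT116 cells.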

How the data were processed

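HCT116 and Ramos libraries were grouped by their titles, 3 per group. For HCT116 the labels give the lower dose as 2 µM and the study's methods as 2.5 µM. A label tag reading 4 h for libraries titled 24 h was not followed. The authors deposited RPKM per gene, scaled for gene length and reads. The submitters' processing notes name RSEM. The aligner, build and annotation are not given in the sources used here. Depth is unknown, so no interval based on it is given, and precision rests on 3 libraries per group. Replicates correlated at 0.988 to 0.997 over 30 pairs, and 0 pairs were identical.

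Symbols were joined from GENCODE 29, which matched 57388 of 57992 genes. Of the HIST symbols, 19 pseudogenes were not used. Log2(RPKM + 0.5) was fitted with limma 3.58.1 (lmFit, eBayes with trend) in R 4.3.3 on genes whose RPKM averaged 0.5 or more across the compared libraries, and the call was a Benjamini-Hochberg adjusted p under 0.05 over all genes tested. Fold changes on this scale understate those of low genes. In simulated data for 10 µM at 6 h in HCT116 cells, 130 of 200 genes changed by a log2 of 1 (65%) were recovered, with 14758 genes tested and 8 false calls. For the interaction at 6 h 166 (83%) were recovered among 15057, with 8 false calls. With no change, 0 were called. The simulated noise was independent between genes, so shifts of a whole library, as in the sums of RPKM, were not simulated.

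Genes named were the 3 highest of each class, up to 3 largest rises and falls per comparison among called genes averaging 2 RPKM or more, members outside HIST1, near-identical members, and the highest genes of 4 lists. The members and lists were chosen with earlier results of these data known. The fits were repeated with another pseudocount (0.1 or 1), without the filter, with median-ratio scaling, with equal sums, after removing a length trend, with a block for replicate number, with the spread taken from all 5 groups of a line, and without each library.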

Additional observations from a re-analysis of the deposited data

Results flagged for a closer look

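The response of histone genes at 6 h, and of fewer of them at 24 h, differed between the lines by the test of the interaction itself. At 6 h, 47 of 57 genes differed, against 40.6% of all genes tested, with log2 differences (HCT116 minus Ramos) of -1.44 for HIST1H1C, -1.36 for HIST2H2AA3, -1.34 for HIST1H2BD, -1.11 for HIST1H3B and -0.96 for HIST1H4J. At 24 h, 14 of 57 genes were called, against 16.3% of all genes, and the difference for HIST1H1C was -0.42. That count of 14 ran from 8 with a replicate block to 40 with equal sums of RPKM. In those fits 1238 and 6381 of all 15714 genes were called. The doses compared, 2 µM in HCT116 and 2.5 µM in Ramos cells, are not equal, and line and culture conditions cannot be told apart.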

How the results depend on the processing

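Of 19 counts of histone genes called, none changed by more than 1.5 times with a pseudocount of 0.1 or 1 or with median-ratio scaling. With no filter on low values, counts were 20 for HCT116 2 µM 24 h, and 10 and 27 for Ramos 6 h at 0.5 and 2.5 µM. They were 0 for Ramos 2.5 µM 24 h, and 25 and 27 for 24 h against 6 h in Ramos at 0.5 and 2.5 µM. The Ramos doses at 24 h gave 0 and the interaction at 24 h gave 9. Over all genes the counts, in that order, were 2282 of 29848, 2008 of 25313, 2665 of 25647, 84 of 25387, 2307 of 25976, 2040 of 26273, 65 of 25865 and 1948 of 32648. With all 5 groups of a line in 1 fit, histone counts were 11 and 8 for HCT116 24 h at 2 and 10 µM. The HCT116 doses at 6 h gave 26 and Ramos 2.5 µM 24 h gave 1. Over all genes these counts were 1113, 2535 and 137 of 14826, and 1242 of 13594. With equal sums of RPKM, histone counts were 19 of 55 for Ramos 2.5 µM 24 h, 34 of 55 for the Ramos doses at 24 h and 40 of 57 for the interaction at 24 h. Over all genes they were 5365 of 13607, 2563 of 13629 and 6381 of 15714, so the 19 of 55 did not exceed the share of all genes. With the length trend removed, histone counts were 0 for Ramos 2.5 µM 24 h and 3 for the Ramos doses at 24 h. Over all genes they were 342 of 13607 and 538 of 13629. HIST1H4J in the interaction at 24 h, 0.10 as reported, was -0.26 with equal sums and -0.11 with the length trend removed. The cause of these shifts was not tested.

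The main fits did not pair libraries by replicate number. Deviations of same-numbered libraries correlated at -0.303 to 0.184 over 51 pairs, and in 0 comparisons did every pair exceed 0.1. These values do not settle whether the numbers mark pairs. With a replicate block the count was 0 for Ramos 2.5 µM 24 h and 8 for the interaction at 24 h. Over all genes 197 of 13607 and 1238 of 15714 were then called. No other count of histone genes moved by over 1.5 times. Leaving out 1 library at a time gave 29 to 47 genes for HCT116 10 µM 24 h against 6 h, 0 to 5 for the HCT116 doses at 6 h, 20 to 42 for Ramos 0.5 µM 6 h, 0 to 6 for Ramos 2.5 µM 24 h, 0 to 2 and 0 to 6 for the Ramos doses at 6 and 24 h, and 9 to 21 for the interaction at 24 h. Counts over all genes are not given for the fits without 1 library. Unknown depth leaves the counting error of the low members open to no estimate.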
